A study of Mus musculus with 12 samples.

Results

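The bone marrow of TF mice, which are heterozygous for loss of Tet2 and carry 1 Flt3ITD allele (Tet2+/- Flt3ITD/+), was compared with that of WT mice. The members are the 3 TF and 3 WT libraries that the sample labels name, 6 of the 11 libraries with values, and every gene in them. Of the 12199 genes in the deposited count table, 12175 passed the filter on low counts and were tested. The study sequenced RNA of whole BM mononuclear cells from C57BL/6 mice to compare heterozygous mutations of Tet2, Dnmt3a and Flt3 in combination, and its other groups are DF (Dnmt3a+/- with Flt3ITD) and TFD (all 3 mutations). Poly(I:C), a double-stranded RNA, was given to every group, the WT mice among them. It induces interferon and, through it, the MxCre that deletes floxed Dnmt3a in DF and TFD. The Tet2 and Flt3ITD alleles of TF mice came from crosses of mutant lines and needed no Cre. The WT mice were obtained from a core facility, and the methods do not describe them as littermates. The labels describe the TF samples as knockdown leukemia marrow, whereas the genotype they give is heterozygous. They do not say whether each library is 1 mouse, so the p values measure the spread between libraries, whatever its source.

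TET2 oxidizes methyl groups on DNA cytosines, a step toward their removal, and its loss is frequent in clonal hematopoiesis and myeloid leukemia. FLT3 is a receptor tyrosine kinase of early progenitors and dendritic cells, and an internal tandem duplication (ITD) lets it signal without its ligand, through STAT5 and the RAS-ERK pathway among others. Marrow progenitors feed granulocyte, monocyte, dendritic, erythroid, megakaryocyte and B cell branches, each with its own transcription factors. In RNA of whole marrow, fewer cells of a type and less RNA per cell cannot be told apart.

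Most erythroid and early B genes below were lower in TF, and most monocyte genes were higher. Promoters of some defining erythroid and early B genes are shown first because they are the regulatory DNA of these genes. RefSeq promoters of build GRCm38.p6, from 250 bases before to 50 bases after each gene start, were searched on both strands for 1 short motif per lineage. The motifs were GATAA (GATA factors) for the erythroid list, CCCNNGGG (EBF1) for the early B list and GAGGAA (PU.1) for the monocyte list. Klf1, a transcription factor of red cell development, has its promoter at chr8:84901732-84902031 on the plus strand. That of Epor, the erythropoietin receptor, lies at chr9:21963527-21963826 on the minus strand. That of Igll1, a part of the pre-B cell receptor, lies at chr16:16863936-16864235 on the minus strand. Each is written 5′ to 3′ in the direction of the gene, with the motif or its reverse complement in capitals.
Klf1: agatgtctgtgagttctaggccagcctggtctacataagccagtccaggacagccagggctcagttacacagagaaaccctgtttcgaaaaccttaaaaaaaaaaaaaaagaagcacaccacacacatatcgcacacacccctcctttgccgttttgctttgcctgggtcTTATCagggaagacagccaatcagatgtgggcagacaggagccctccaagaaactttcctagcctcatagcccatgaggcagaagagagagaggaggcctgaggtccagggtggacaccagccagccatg
Epor: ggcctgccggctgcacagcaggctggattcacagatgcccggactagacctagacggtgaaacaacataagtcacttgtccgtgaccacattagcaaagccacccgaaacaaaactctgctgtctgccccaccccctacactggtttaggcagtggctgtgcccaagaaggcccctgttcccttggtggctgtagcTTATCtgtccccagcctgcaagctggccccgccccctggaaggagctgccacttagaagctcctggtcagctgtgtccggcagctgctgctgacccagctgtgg
Igll1: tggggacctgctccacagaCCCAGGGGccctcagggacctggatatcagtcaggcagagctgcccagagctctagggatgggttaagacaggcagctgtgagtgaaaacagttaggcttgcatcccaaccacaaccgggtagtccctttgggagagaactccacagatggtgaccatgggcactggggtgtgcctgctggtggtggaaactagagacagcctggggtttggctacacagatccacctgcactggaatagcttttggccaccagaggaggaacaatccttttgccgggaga
The capitals begin at an offset of -80 from the gene start in Klf1, -54 in Epor and -231 in Igll1. Each promoter shown holds a match and none is of a monocyte gene, so they do not stand for the shares over the lists. GATAA or its reverse complement stood in 17 of 42 erythroid promoters (40.5%, from 31 of 46 listed genes) and in 25.4% of all 32851 promoters. GAGGAA stood in 16 of 33 monocyte promoters (48.5%, from 28 of 35 genes) and in 28.3% of all. CCCNNGGG, a palindrome, stood in 4 of 27 early B promoters (14.8%, from 21 of 26 genes) and in 13.7% of all. A match describes letters only, since binding was not measured.

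Total counts ranged from 8274153 to 11682062 in the WT libraries and from 10812015 to 12347847 in the TF libraries. WT replicate 3 (33978 counts) and TF replicate 3 (30976 counts) held the Xist RNA of female cells. The other 4 libraries held 18 to 20 Xist counts and 1256 to 1871 counts of the Y-linked Ddx3y. Short genes stood above the WT mean in the TF libraries, with a median of 0.17 to 0.23 in log2, and long genes below it, with a median of -0.17 to -0.12. Sex, gene length and replicate 3 were therefore varied in turn.

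The targeted genes were examined first. Tet2 stood at 152, 169 and 148 CPM in WT 1 to 3 and at 136, 199 and 205 CPM in TF 1 to 3, where CPM is the count scaled to a common library size with TMM factors. The groups overlapped, and its log2 fold change was 0.21 ± 0.16 (SE, n = 3 per group) with an adjusted p of 0.33 by edgeR's quasi-likelihood test. With a correction for gene length Tet2 was called higher (0.39, adjusted p = 0.0438, edgeR). Which part of Tet2 the allele removes is not given in the sources used here, and reads outside that part check nothing. Flt3 stood at 30.1, 22.5 and 20.8 CPM in WT and at 65.4, 55.4 and 71.3 CPM in TF. Every TF library thus exceeded every WT library, and Flt3 rose by 1.38 ± 0.28 (adjusted p = 0.0023, edgeR), though gene counts do not separate the ITD from the WT allele. Dnmt3a, which TF mice carry unaltered, stood at 30.9, 50.4 and 57.8 CPM in WT and at 63.2, 57.7 and 86.2 CPM in TF. These values overlapped at their edge, and the call (adjusted p = 0.0444, edgeR) was lost in 10 of 21 alternatives. The highest of their adjusted edgeR p values was 0.149, without TF replicate 3. Of 13 tested DNA methylation writers and erasers, 5 were higher and 1 was lower, and 2 were higher without TF 1, 3 without WT 1, WT 2 or TF 2, and 8 with a correction for gene length. Among them Idh1 and Idh2, enzymes that supply the cosubstrate of TET2, rose by 0.86 ± 0.11 and 0.85 ± 0.17.

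Over all genes, TF marrow differed from WT marrow in 4216, of which 2317 were higher (19.0% of those tested) and 1899 lower (15.6%). The change was at least 2-fold for 759 of the higher genes and 577 of the lower genes. The TF and WT libraries did not overlap in 5963 genes (49.0%). Without TF replicate 1, 1167 genes were lower, the fewest with any TF or WT library left out. Without TF replicate 3, 2311 genes were higher (19.0%) and 2015 lower (16.6%), and 3745 of the 4216 calls (88.8%) remained. The median log2 fold change over all tested genes was 0.02, the value to hold beside the list medians that follow. The lists share some genes and were compared with all tested genes only by these counts and medians.

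**Figure D1:**
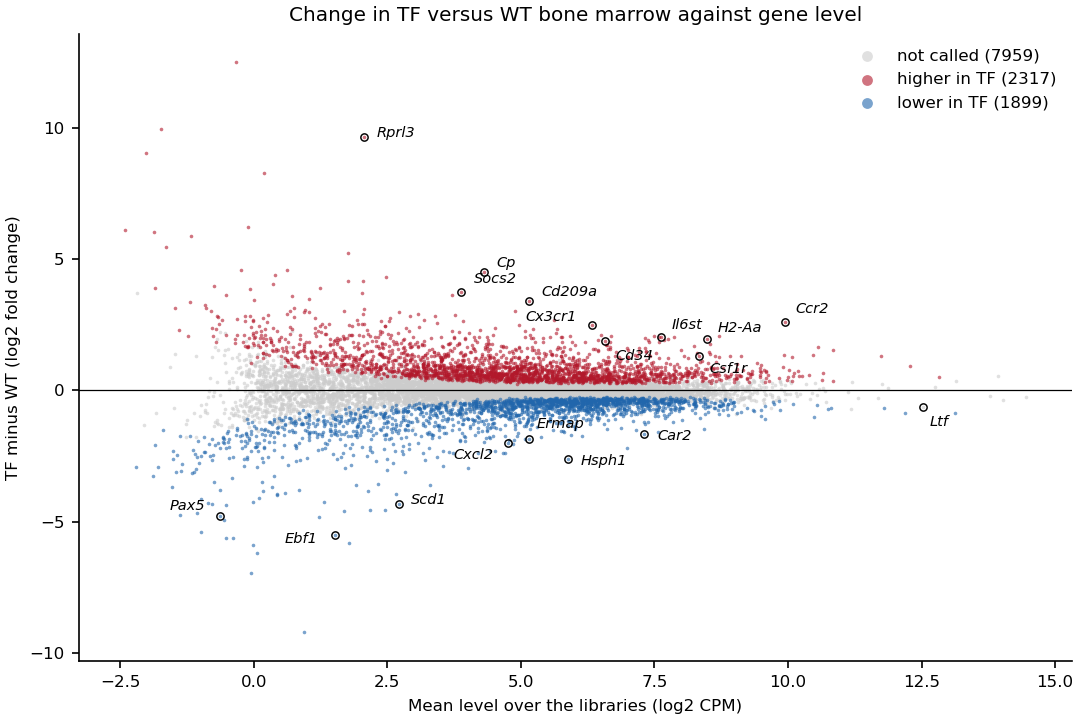
Change in TF versus WT (log2 fold change, vertical axis) against mean level over the 11 libraries (log2 CPM, horizontal axis), 1 point per tested gene, with genes of the text circled. The 2317 genes higher in TF (red) include Cp, Socs2 and Ccr2, the 1899 lower genes (blue) include Ebf1, Pax5 and Scd1, and genes in grey were not called.

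The following were among the well-expressed genes with the largest rises. Cp encodes ceruloplasmin, a copper-carrying ferroxidase, and lies at chr3:19957054-20009750 (mm10). It stood at 2.22, 1.73 and 2.6 CPM in WT and at 59.3, 45.5 and 48.7 CPM in TF, a rise of 4.52 ± 0.25 (adjusted p = 2.76e-07, edgeR). Tmem178, a regulator of calcium in the endoplasmic reticulum, rose by 4.32 ± 0.41 and Kcnq3, a potassium channel subunit, by 4.15 ± 0.48. Kcnq3 stood at 13.3 and 11.9 CPM in TF 1 and 2 but at 3.92 CPM in TF 3. Plxdc2, Adgra3 and Tnip3 (a feedback inhibitor of NF-kB) rose by between 3.10 and 3.72. Clec10a, Cd209a and Clec4b1, lectins of dendritic cells and monocytes, rose by between 2.99 and 3.42. The largest fitted change belonged to Rprl3, a gene for a ribonuclease P RNA copy, which held 2 to 4 counts per WT library and 2359 to 3354 per TF library. Reads of such a copy can be split with its near-identical relatives, so its value is uncertain.

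STAT5 acts downstream of FLT3. Of 17 tested STAT5 targets and feedback genes, 6 were higher and 5 lower, with a median of -0.03. Socs2, which encodes an inhibitor of cytokine receptor signaling that STAT5 induces, lies at chr10:95411490-95416857. It stood at 2.22, 2.23 and 3.31 CPM in WT and at 37.3, 35.2 and 33.4 CPM in TF. Its rise of 3.76 ± 0.19 (13.5-fold, adjusted p = 2.76e-07, edgeR) was alike in the 3 TF libraries. Cish, a related feedback inhibitor, rose by 1.26 ± 0.24 and Pim1, a STAT5-induced kinase, by 0.63 ± 0.16. The lower ones include Osm, a cytokine gene, at -0.63 ± 0.20, whose call was lost in 3 alternatives. Without TF 2 or WT 1, 2 and 3 of the list were lower.

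Of 16 tested RAS-ERK feedback genes, 6 were lower, 2 higher and 8 not called, with a median of -0.42. Dusp6, the ERK phosphatase, stood at 138, 141 and 117 CPM in WT and at 84, 82.7 and 66.9 CPM in TF. The libraries did not overlap, and Dusp6 fell by 0.76 ± 0.20 (adjusted p = 0.0108, edgeR). Spry2, an inhibitor of receptor tyrosine kinase signaling, fell by 0.93 ± 0.22, Etv5 by 1.15 ± 0.28 and Phlda1 by 1.46 ± 0.28. The higher genes were Spry1 and Spred3, named after their values were seen. Neither was called once TF replicate 3 and WT replicate 3 were both left out, and none of the 16 was higher without TF replicate 1 or without WT replicate 3. Without TF 3 or WT 2, 1 was higher.

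Growth factor receptors rose more often than they fell, 10 higher and 3 lower of 17, with a median of 0.37. Il6st, the signaling chain gp130 shared by the IL-6 family, stood at 71.3, 78.6 and 74.4 CPM in WT and at 344, 297 and 277 CPM in TF. It rose 4.09-fold (2.03 ± 0.11). Csf1r, the receptor that drives monocytes and macrophages, rose by 1.31 ± 0.12. By contrast Csf3r, the granulocyte colony-stimulating factor receptor, stood at 577, 496 and 415 CPM in WT and at 319, 334 and 273 CPM in TF and fell by 0.69 ± 0.20, a call lost without WT 1. The lower genes also included Epor and Il5ra, the latter named after its values were seen. With WT 1, WT 3, TF 1 or TF 2 left out in turn, 1 of the 3 was lower.

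Of 24 tested stem and progenitor genes 6 were higher and 3 lower, shares near those over all tested genes (19.0% and 15.6%). Their median was -0.11 with all libraries and 0.05 without TF 3. Cd34, a surface marker of progenitors, stood at 42.1, 34.2 and 36.2 CPM in WT and at 152, 174 and 83.5 CPM in TF. All TF libraries were above WT, and TF replicate 3 was the lowest of them. Cd34 rose by 1.86 ± 0.21 and Cd48, a marker of committed progenitors and leukocytes, by 1.84 ± 0.12. Hoxa9, a homeobox gene of stem cells and leukemia, went from 2.87, 1.73 and 2.87 CPM in WT to 5.58, 5.73 and 5.02 CPM in TF (1.10 ± 0.25). Gata2, a transcription factor of stem and mast cells, went from 18, 14.2 and 14.5 CPM to 6.14, 7.04 and 5.2 CPM and fell by 1.35 ± 0.20. Kit, the stem cell factor receptor, stood at 75.2, 76.2 and 80 CPM in WT and at 71.3, 77.6 and 63.3 CPM in TF, with an adjusted edgeR p of 0.39.

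Most monocyte genes rose. Of 35 tested, 28 were higher (80.0%) and 0 lower, the median was 1.28, and 28 were higher without TF replicate 3 and also without both replicates 3. Ccr2, the chemokine receptor of inflammatory monocytes, lies at chr9:124102183-124109140. It stood at 262, 283 and 297 CPM in WT and at 2079, 1529 and 1548 CPM in TF. Every TF library was more than any WT library, a 6.13-fold rise (2.62 ± 0.17, adjusted p = 1.02e-06, edgeR). Cx3cr1, the fractalkine receptor of monocytes, stood at 27.5, 18.8 and 30.9 CPM in WT and at 155, 126 and 158 CPM in TF. It rose by 2.50 ± 0.16, and Ms4a6c, a membrane protein of monocytes, by 2.06 ± 0.12. The transcription factors of the lineage rose as well: Irf8 stood at 143, 123 and 160 CPM in WT and at 455, 456 and 483 CPM in TF (1.71 ± 0.13), and Klf4 rose by 1.93 ± 0.16. The list medians relative to WT were close to each other in the 3 TF libraries, with values of 1.37, 1.14 and 1.26 in TF 1 to 3.

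**Figure D2:**
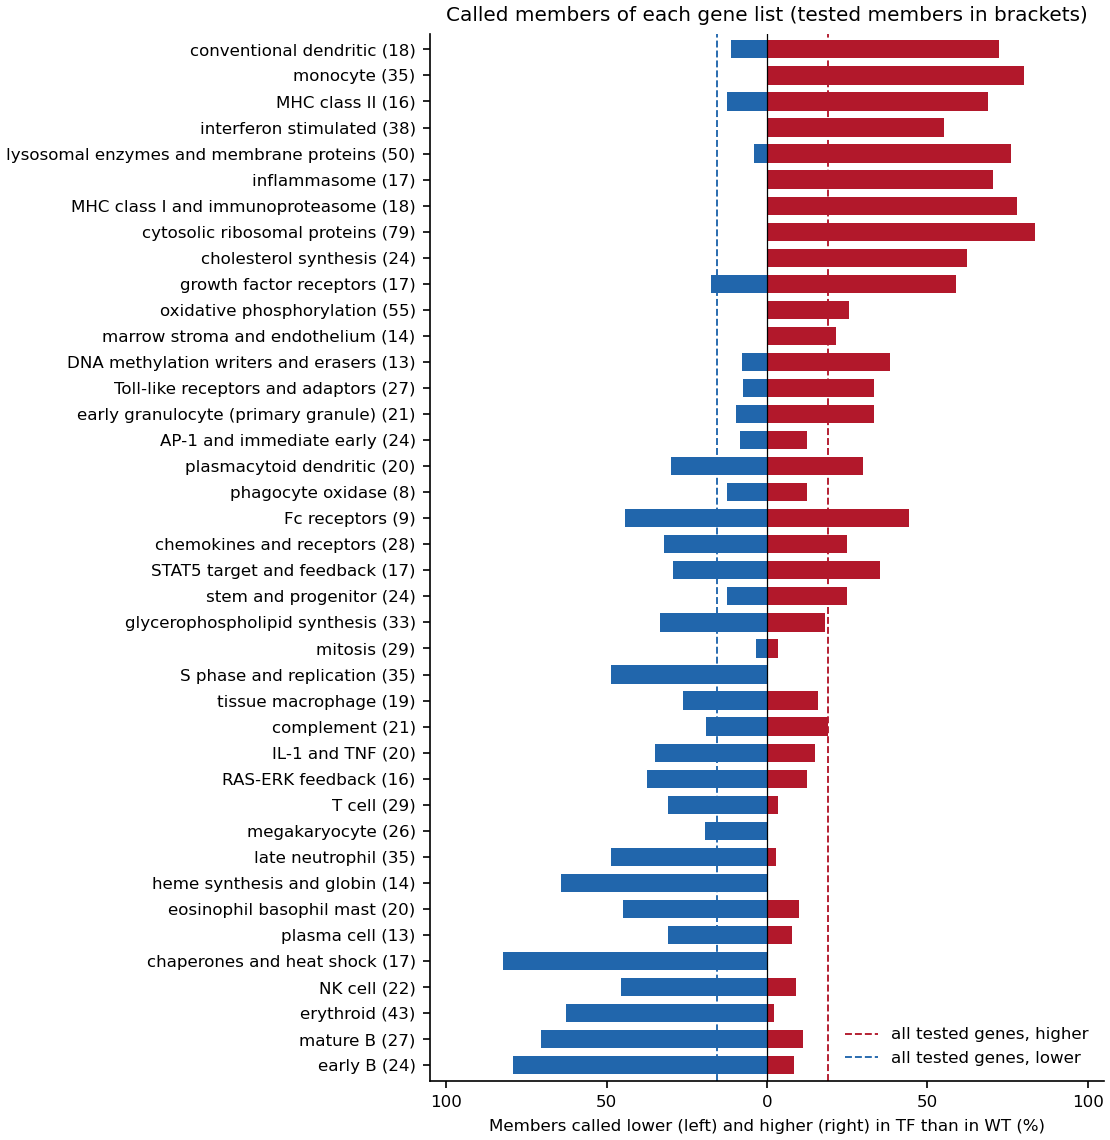
Share of tested members called higher (red, to the right) and lower (blue, to the left) in TF than in WT, in percent, for the lists with 8 or more tested genes, ordered by median change. Dashed lines mark the shares over all tested genes, 19.0% higher and 15.6% lower; monocyte genes (80.0% higher) and early B genes (79.2% lower) lie near the ends.

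Conventional dendritic cell genes had a median of 1.67, above that of every other list described here, with 13 of 18 tested higher and 2 lower. Cd209a, a lectin of dendritic cells, stood at 15.1, 12.9 and 7.7 CPM in WT and at 121, 75.5 and 184 CPM in TF. The groups were far apart, though the TF libraries differed 2-fold and more among themselves, and Cd209a rose by 3.42 ± 0.54 (adjusted p = 4.88e-04, edgeR). Batf3, a transcription factor of cross-presenting dendritic cells, rose from 1.07, 0.371 and 0.179 CPM to 8, 2.86 and 8.57 CPM. Itgax (CD11c) stood at 24.6, 19.8 and 18 CPM in WT and at 38.5, 20.7 and 68.4 CPM in TF, and its adjusted edgeR p of 0.0268 became 0.117 without TF replicate 3. Zbtb46, a transcription factor confined largely to this lineage, stood at 9.44 to 11.4 CPM in WT and at 8.48, 6.38 and 17.5 CPM in TF and was not called. The lower genes were Ccr7, the receptor that guides mature dendritic cells and lymphocytes to lymph nodes, at -2.94 ± 0.43, and Irf4, whose call was lost in 7 alternatives. With any 1 of the WT libraries, TF 1 or TF 2 left out, 1 of these was lower.

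Genes of MHC class II, which presents antigen to CD4 T cells, rose in 11 of 16 tested and fell in 2, with a median of 1.26. H2-Aa stood at 251, 231 and 193 CPM in WT and at 846, 437 and 1363 CPM in TF. The TF libraries were all above WT, with TF 3 the highest and TF 2 the lowest, and H2-Aa rose by 1.97 ± 0.44 (adjusted p = 0.00409, edgeR). H2-DMa, which loads peptides onto these molecules, rose by 2.07 ± 0.18 with less spread, from 28.9, 24.3 and 23.1 CPM to 111, 88.3 and 122 CPM. Cd74, the invariant chain, stood at 530, 442 and 362 CPM in WT and at 1055, 516 and 1704 CPM in TF. Its TF and WT libraries overlapped, and its call (adjusted p = 0.0425, edgeR) was lost in 10 of 21 alternatives. Without TF replicate 3 its adjusted p was 0.149 by edgeR. Ciita, the master regulator of the class, did not pass the test (1.18 ± 0.43, adjusted p = 0.0512, edgeR) but did so in 5 alternatives. The lower members were H2-Eb2 and H2-DMb2, named after their values were seen, and none was lower without WT 1, WT 2, TF 1 or TF 2.

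Genes of MHC class I presentation rose by less and more evenly, 14 of 18 higher and 0 lower, with a median of 0.65. The inducible proteasome subunits Psmb9 and Psmb8 rose by 1.11 ± 0.14 and 1.03 ± 0.11. Tap1, the peptide transporter, stood at 71.4, 62.4 and 78.8 CPM in WT and at 147, 133 and 150 CPM in TF. B2m, the light chain of class I, went from 627, 549 and 679 CPM to 1044, 937 and 1053 CPM, a rise of 0.71 ± 0.15.

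Interferon-stimulated genes, which encode antiviral proteins, were higher in 21 of 38 and lower in 0, with a median of 0.70, or 0.45 without TF 3. Mx1, an antiviral GTPase, stood at 10.5, 19.1 and 16.5 CPM in WT and at 49.1, 38.3 and 59.6 CPM in TF and rose by 1.69 ± 0.22 (adjusted p = 1.26e-04, edgeR). Irf7, the factor that amplifies the type I interferon response, stood at 27.2, 27.4 and 31 CPM in WT and at 46.5, 35.7 and 68.3 CPM in TF, with a rise of 0.81 ± 0.21, or of 0.53 without TF 3. TF replicate 2 was the lowest TF library for both genes. Over the list, the medians relative to WT were 0.73, 0.13 and 1.06 in TF 1 to 3, so that TF 2 lay within the WT span of -0.18 to 0.17. The count was 13 without WT 1 or TF 1, 14 without WT 2 or TF 3 and 25 without TF 2. Isg15, a ubiquitin-like protein, was not called and stood at 3.12 to 8.86 CPM in WT and at 4.61, 3.52 and 12.6 CPM in TF.

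Inflammasome genes were higher in 12 of 17 and lower in 0, with a median of 0.67. P2rx7, the ATP-gated channel that activates NLRP3, stood at 15.9, 18.1 and 17.2 CPM in WT and at 56.3, 52.1 and 51.4 CPM in TF, a tight rise of 1.65 ± 0.10. Nlrp1b rose by 1.62 ± 0.25, Casp1, the protease that matures IL-1, by 0.98 ± 0.13, and Aim2, a sensor of cytosolic DNA, by 0.80 ± 0.14. Nlrp3 itself stood at 161, 158 and 180 CPM in WT and at 176, 126 and 177 CPM in TF (adjusted p = 0.801, edgeR). Il1b, a cytokine that CASP1 matures, stood at 418, 151 and 247 CPM in WT and at 187, 97.8 and 151 CPM in TF, with an adjusted edgeR p of 0.0518, and was called lower in 8 alternatives. Of 20 tested IL-1 and TNF genes, 7 were lower and 3 higher. Il1r2, the IL-1 decoy receptor, fell by 1.34 ± 0.21 and Il1rn, the receptor antagonist, by 0.91 ± 0.27, a call lost without WT 2 or TF 1, while Nfkb1 rose by 0.83 ± 0.11. Without TF 1 or TF 2, 3 and 4 of the 20 were lower.

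Toll-like receptors and their adaptors were higher in 9 and lower in 2 of 27 tested. Ly86, the partner of the TLR4 homolog CD180, stood at 41.5, 51.5 and 50 CPM in WT and at 197, 153 and 162 CPM in TF and rose by 1.84 ± 0.14. Tlr3, the receptor for double-stranded RNA, rose by 2.14 ± 0.53, from 1.16 to 1.86 CPM in WT to 5.33, 3.11 and 10.5 CPM in TF, but was not called without TF 3 and WT 3 together (adjusted p = 0.0714, edgeR). Tlr4 fell by 0.47 ± 0.14, a call lost in 3 alternatives, and Tlr5, named after its values were seen, was also lower. None was lower without WT 2 or TF 1, 1 without TF 2 or TF 3 and 4 without WT 3. With the sex term 5 were lower, and without TF 3 and WT 3 together 5 were higher.

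Lysosomal genes rose in 38 of 50 tested and fell in 2, with a median of 0.70, and the count of higher genes ran from 35 to 38 with 1 TF or WT library left out. Npc2, which carries cholesterol in the lysosome, stood at 145, 155 and 151 CPM in WT and at 394, 374 and 347 CPM in TF. It rose by 1.30 ± 0.10 and Lamp1, a protein of its membrane, by 0.85 ± 0.10. Ctsd, the abundant protease, stood at 507, 491 and 462 CPM in WT and at 372, 393 and 364 CPM in TF, with an adjusted edgeR p of 0.0574, and was called lower in 7 alternatives. The lower members were Acp5 and, named after its values were seen, Cd63. Acp5, an acid phosphatase, stood at 38.2, 29.9 and 42.7 CPM in WT and at 5.33, 6.38 and 24.6 CPM in TF. It fell by 1.62 ± 0.42, or by 2.66 without TF 3, which lay nearest to WT.

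Fc receptors split evenly, 4 higher and 4 lower of 9, with 2 higher without WT 3 or with the length correction. Fcgrt, the neonatal Fc receptor, rose by 2.25 ± 0.15 (11.7, 12.4 and 15 CPM in WT, 69.8, 51.3 and 64.7 CPM in TF). Ms4a2 and Fcer1a, chains of the IgE receptor of mast cells and basophils, fell by 1.11 ± 0.23 and 1.11 ± 0.36. The Ms4a2 call held in all 21 alternatives and the Fcer1a call was lost in 4. Of 21 complement genes, 4 were higher and 4 lower, with 8 lower without TF 3 and WT 3 together. The shares, 19.0% in each direction, were near those over all tested genes (19.0% and 15.6%). Cd55, a complement inhibitor of the cell surface, went from 75.4, 90.3 and 88.4 CPM to 13.8, 13.7 and 21.3 CPM and fell by 2.38 ± 0.24. Of 28 chemokines and receptors, 7 were higher and 9 lower. Phagocyte oxidase genes had 1 of 8 in each direction, between 0 and 1 with a library left out, and the catalytic chain Cybb stood at 1259 to 1634 CPM in WT and at 1342 to 1670 CPM in TF.

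Primary granule genes of early granulocytes were higher in 7 and lower in 2 of 21, with a median of 0.17, which was 0.36 without TF 3 and 0.11 with the length correction. The library medians were 0.17, 0.48 and -0.24 in TF 1 to 3, so that TF 3 was below WT. Cebpa, a transcription factor of granulocyte and monocyte progenitors, stood at 54.8, 52 and 60.1 CPM in WT and at 138, 144 and 121 CPM in TF and rose by 1.27 ± 0.12. Mpo, myeloperoxidase, stood at 1787, 1564 and 1725 CPM in WT and at 2121, 2670 and 1499 CPM in TF and was not called, nor were Elane and Prtn3. Fcnb stood at 187, 250 and 201 CPM in WT, at 94.9 and 121 CPM in TF 1 and 2 and at 10.7 CPM in TF 3. It was 1 of the 2 lower genes, a call lost in 9 alternatives, and 1 was lower with WT 1, WT 2, WT 3 or TF 1 left out.

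Late neutrophil genes were lower in 17 of 35 and higher in 1 (Ccl6, named after its values were seen), with a median of -0.55. Cxcr2, the receptor that releases neutrophils from marrow, stood at 306, 270 and 204 CPM in WT and at 112, 137 and 94.6 CPM in TF and fell by 1.18 ± 0.22 (adjusted p = 0.0013, edgeR). Cxcl2, one of its ligands, went from 92.9, 55.9 and 71 CPM to 21.2, 14.7 and 19.8 CPM and fell by 1.99 ± 0.19. Ltf, lactoferrin, stood at 7495, 8809 and 5418 CPM in WT and at 4765, 5368 and 3747 CPM in TF, which did not overlap and yet did not pass (adjusted p = 0.0591, edgeR), though it did in 7 alternatives. S100a8 and Camp overlapped between groups. The count of lower genes fell to 10 without WT 2, TF 1 or TF 3 and rose to 23 with the sex term and 24 with a correction for gene length. Among eosinophil, basophil and mast cell genes 9 of 20 were lower and 2 higher. Without TF 1, 4 were lower and 4 higher, and without WT 2 or TF 2, 1 was higher. Cpa3, a mast cell protease, fell by 0.95 ± 0.28, a call lost in 3 alternatives. Prg2, an eosinophil granule protein, stood at 202, 209 and 248 CPM in WT and at 182, 471 and 257 CPM in TF.

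**Figure D3:**
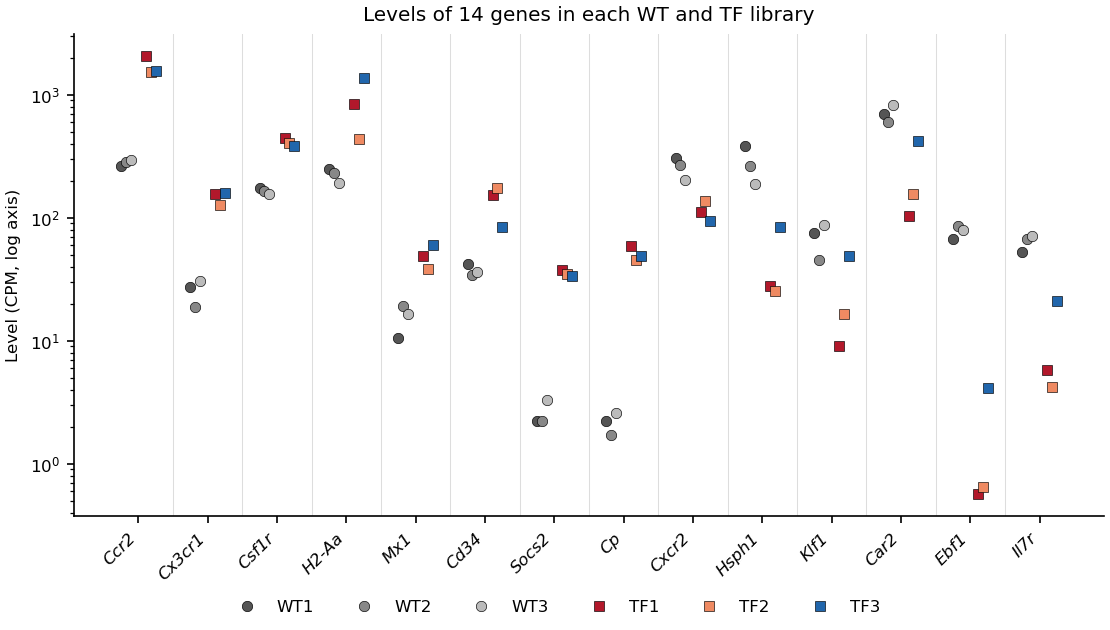
Levels (CPM, log axis) of 14 genes in each WT (circles) and TF (squares) library. Ccr2 stands at 262 to 297 CPM in WT and at 1529 to 2079 CPM in TF, whereas TF replicate 3 (blue) stands above the other TF libraries for the erythroid genes Klf1 and Car2 and the B cell genes Ebf1 and Il7r.

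Most erythroid genes fell, and TF 3 stood apart from the other TF libraries. Of 43 tested, 27 were lower (62.8%) and 1 was higher (Tmcc2, named after its values were seen, and not without TF 3), with a median of -1.08, or -1.82 without TF 3. Car2, the carbonic anhydrase of erythroid cells, stood at 696, 596 and 820 CPM in WT and at 104, 155 and 419 CPM in TF. All TF libraries were below WT, TF 3 by the least, and Car2 fell by 1.64 ± 0.39 (adjusted p = 0.00616, edgeR). Pklr, the pyruvate kinase of red cells, stood at 43.4, 34.2 and 54.8 CPM in WT and at 4.85, 5.64 and 20.7 CPM in TF. It fell by 2.10 ± 0.44 with all libraries and by 3.07 without TF replicate 3. Klf1, whose promoter is printed above, stood at 74.6, 45 and 87.4 CPM in WT and at 9.13, 16.4 and 49.3 CPM in TF. Here TF 3 lay within the WT range, as it did for Gata1, the master factor of the lineage (36.4, 23 and 39.3 CPM in WT, 5.33, 11.2 and 24 CPM in TF). Both were called (adjusted p = 0.0235 and 0.0245, edgeR), but each call was lost in 4 alternatives. Epor went from 16.8, 17.3 and 24.9 CPM to 3.23, 4.25 and 14.5 CPM and fell by 1.44 ± 0.42, or by 2.39 without TF 3, a call lost without WT 3, TF 1 or TF 2.

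The count of lower erythroid genes was 35 without TF 3, 14 without WT 3, 13 without TF 1 and 12 without TF 2, and 35 without TF 3 and WT 3 together. Heme synthesis genes were lower in 9 of 14 and higher in 0, with 5 lower without TF 1 or TF 2. Cpox, an enzyme of the pathway, stood at 155, 150 and 206 CPM in WT and at 37.2, 47.4 and 114 CPM in TF and fell by 1.37 ± 0.31. Alas2, the first erythroid enzyme of the pathway, stood at 36, 42.9 and 44.9 CPM in WT and at 28.5, 39.7 and 84.5 CPM in TF and was not called. Globin RNA was removed before library preparation, and globin genes were not analysed here. Slc4a1, the band 3 anion exchanger, stood at 256, 234 and 279 CPM in WT, at 116 and 162 CPM in TF 1 and 2 and at 377 CPM in TF 3, above every WT library.

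Megakaryocyte genes were lower in 5 of 26 (19.2%, near the 15.6% over all tested genes) and higher in 0, with a median of -0.52. Vwf, the platelet adhesion factor, stood at 23.1, 19.7 and 26.9 CPM in WT and at 14.4, 14.7 and 13.8 CPM in TF. Its fall of 0.70 ± 0.23 (adjusted p = 0.0338, edgeR) was alike in the 3 TF libraries but was lost in 7 alternatives. Pf4 and Itga2b did not pass but did so in 4 and 6 alternatives. The count was 2 without WT 1 or TF 3, 3 without WT 3 or TF 1 and 1 without both replicates 3.

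Most B cell genes fell. Of 24 early B genes 19 were lower (79.2%) and 2 higher, with a median of -2.82, and 18 or 19 were lower whichever TF or WT library was left out. Ebf1, the factor that commits progenitors to the lineage, stood at 67, 86 and 79.7 CPM in WT and at 0.566, 0.654 and 4.1 CPM in TF. All TF libraries were far below WT, and Ebf1 fell by 5.49 ± 0.50 (adjusted p = 1.06e-05, edgeR). Pax5, the factor that maintains B cell identity, held 237 to 419 counts per WT library and 1, 2 and 36 counts in TF 1 to 3. Rag1, the recombinase of antigen receptor genes, held 968 to 1560 counts in WT and 1, 3 and 50 in TF. With so few counts in TF 1 and 2 the sizes of these falls are imprecise. Igll1 (promoter above) went from 14.9, 18.1 and 11.9 CPM to 0.889, 0.9 and 2.19 CPM. Il7r, the receptor for the growth factor of B cell progenitors, stood at 52.8, 67.7 and 70.8 CPM in WT and at 5.74, 4.25 and 20.9 CPM in TF. The higher genes, Cd93 and Spn, were named after their values were seen, and both also mark myeloid or progenitor cells.

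Mature B genes were lower in 19 of 27 and higher in 3, with a median of -2.17. Ms4a1 (CD20) stood at 84.7, 87.6 and 117 CPM in WT and at 0.566, 0.9 and 19.4 CPM in TF and fell by 3.83 ± 0.77, or by 7.02 without TF 3. Cd22, an inhibitory B cell receptor, stood at 44.5, 42.6 and 43.3 CPM in WT, at 6.06 and 4.42 CPM in TF 1 and 2 and at 38.1 CPM in TF 3. It was not called with all libraries (adjusted p = 0.0736, edgeR) and fell by 3.05 without TF 3. The 3 higher genes were Cd74, Tnfrsf13b and Cd40, the last 2 named after their values were seen. Scd1, a fatty acid desaturase, and Trib2 and Cecr2 were among the 12 steepest falls of well-expressed genes without being on a B cell list. Trib2, for example, stood at 73.2, 76.7 and 104 CPM in WT and at 1.21, 2.21 and 7.57 CPM in TF, with TF 3 the highest of the TF libraries.

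Plasma cell genes were lower in 4 of 13, in 8 without TF 3, in 2 without WT 1 or TF 2 and in 0 without TF 1. Slamf7 was the 1 higher, a call lost without WT 1, WT 2, TF 1 or TF 3. Mzb1, a chaperone of antibody secretion, stood at 21.1, 16.2 and 25.8 CPM in WT and at 5.09, 5.15 and 15.4 CPM in TF, a fall that was not called without TF 1. Xbp1, the factor of the secretory program, stood at 159 to 189 CPM in WT and at 179 to 195 CPM in TF. T cell genes were lower in 9 and higher in 1 of 29 with all libraries, lower in 18 without TF 3 and higher in 2 without TF 2. Cd3e, a chain of the T cell receptor complex, stood at 4.43, 5.57 and 5.28 CPM in WT, at 3.07 and 1.72 CPM in TF 1 and 2 and at 8.03 CPM in TF 3. Tcf7, a T lineage factor, was lower in all 3 (9.85, 7.43 and 9.13 CPM in WT, 2.26, 2.05 and 4.47 CPM in TF). Of 22 NK cell genes 10 were lower and 2 higher, with 5 lower without TF 1 and 6 without TF 2. Gzma, granzyme A, held 37 to 62 counts per WT library and 2 to 4 per TF library, whereas Klrd1 (CD94) rose from 6.54 to 7.18 CPM in WT to 16.8, 8.1 and 34.9 CPM in TF. Klrd1 was not called without TF 3 and WT 3 together (adjusted p = 0.0741, edgeR).

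Plasmacytoid dendritic and tissue macrophage genes moved both ways. Plasmacytoid dendritic genes were higher in 6 and lower in 6 of 20, with a median of 0.08. The library medians were -0.87, -0.88 and 0.77 in TF 1 to 3. Without TF 3 there were 4 higher and 8 lower, with a median of -0.95, and without TF 2 there were 8 higher and 5 lower. Siglech, a defining receptor, stood at 35.5, 42.2 and 42.3 CPM in WT, at 15.8 and 11.9 CPM in TF 1 and 2 and at 63.2 CPM in TF 3, and was not called (adjusted p = 0.63, edgeR) but was lower without TF 3 (adjusted p = 0.0263). Spib, which B cells share, fell by 2.30 ± 0.53. Tissue macrophage genes were lower in 5 and higher in 3 of 19, with 12 lower without TF 3 and 3 lower without WT 1, WT 3, TF 1 or TF 2. Cd5l, a secreted protein of macrophages, stood at 13.5, 6.44 and 18.8 CPM in WT and at 0.727, 0.654 and 4.74 CPM in TF and fell by 2.70 ± 0.59, or by 4.22 without TF 3. Slc40a1, the iron exporter ferroportin, went from 214, 258 and 230 CPM to 96.7, 112 and 107 CPM and fell by 1.16 ± 0.17. Adgre1 (F4/80), also a gene of monocytes, rose from 55.2 to 60.5 CPM in WT to 123 to 125 CPM in TF.

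Cytosolic ribosomal protein genes were higher in 66 of 79 (83.5%) and lower in 0, with a median of 0.57. Rpl11 stood at 276, 293 and 333 CPM in WT and at 452, 457 and 438 CPM in TF and rose by 0.58 ± 0.12. These genes are short, and with a correction for gene length 40 of 79 were higher. Under that correction the list median was 0.29, and Rpl11 stood 0.27 above WT (adjusted p = 0.0427, edgeR). Many have near-identical pseudogenes, which can take or give reads. S phase genes were lower in 17 of 35 and higher in 0, with a median of -0.29. Ccne1, a cyclin of S phase entry, stood at 60.8, 45 and 57.2 CPM in WT and at 18.3, 23.4 and 35.8 CPM in TF and fell by 1.08 ± 0.21. Rrm2, an enzyme of deoxynucleotide synthesis, fell by 0.60 ± 0.12, while Pcna was not called. Mitosis genes had 1 higher (Aurkb) and 1 lower (Ccna2) of 29, and each count was between 0 and 2 with a library left out. The Aurkb call was lost in 12 alternatives and the Ccna2 call in 6. Mki67, a marker of cycling cells, stood at 2869 to 3054 CPM in WT and at 2413 to 2456 CPM in TF, with an adjusted edgeR p of 0.124.

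Chaperone and heat shock genes were lower in 14 of 17 (82.4%) and higher in 0, with a median of -0.69. Hsph1, an HSP110 chaperone, stood at 385, 263 and 187 CPM in WT and at 28, 25.2 and 83.6 CPM in TF. WT itself spanned 2-fold here, yet all TF libraries were lower, and Hsph1 fell by 2.61 ± 0.41 (adjusted p = 4.83e-04, edgeR). Hsp90aa1 went from 1373, 1145 and 1195 CPM to 563, 581 and 757 CPM and fell by 0.97 ± 0.16. Hspa5, the chaperone of the endoplasmic reticulum, fell by 0.73 ± 0.13. Of 24 immediate early genes, which handling of cells can also induce, 3 were higher and 2 lower, with 0 lower without WT 1, WT 3, TF 1 or TF 2 and 1 higher without TF 3 and WT 3 together. Fos stood at 1052 to 1502 CPM in WT and at 1285 to 1779 CPM in TF. The part of handling in these values was not tested.

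Cholesterol synthesis genes were higher in 15 of 24 and lower in 0, with a median of 0.56. Cyp51, an enzyme of the pathway, stood at 23.6, 28 and 24.4 CPM in WT and at 55.9, 42.6 and 78.1 CPM in TF. All TF libraries were above WT, and Cyp51 rose by 1.22 ± 0.21 (adjusted p = 9.37e-04, edgeR). Sqle, an enzyme that acts earlier in the pathway, rose by 0.85 ± 0.19. Glycerophospholipid synthesis genes were lower in 11 and higher in 6 of 33. Gpam, the first acyltransferase, went from 33.7, 39.9 and 41.9 CPM to 12.2, 16 and 14 CPM and fell by 1.45 ± 0.13. Cds1, which makes CDP-diacylglycerol, rose by 1.82 ± 0.20. Without WT 2, TF 1 or TF 2 the lower count was 7. Oxidative phosphorylation genes were higher in 14 of 55 (25.5%, against 19.0% over all tested genes) and lower in 0, with a median of 0.26. The count of higher genes was 5 without WT 2, 7 without TF 1 and 9 without TF 3. With the length correction 7 were higher and 2 lower, and the median was -0.03.

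TF replicate 3 lay nearer to WT than the other TF libraries. Its mean distance to the 3 WT libraries, the root mean square log2 difference over the 500 genes that differed most, was 2.60 (2.49 to 2.66). The distances were 3.16 for TF 1 and 3.02 for TF 2, and their lowest values, 3.08 and 2.95, exceeded the highest of TF 3. The 3 DF libraries lay at 3.35 to 3.46 and the TFD libraries at 3.07 and 3.11, so TF 3 was the nearest of the 8 mutant libraries to WT. The order of the TF libraries was the same over all tested genes, with library totals and with the length correction. With 1 library of this kind, no test of its difference was made.

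The position of each TF library was read from genes called without it, with 0 at the WT mean and 1 at the mean of the other 2 TF libraries. The median position was 1.10 for TF 1 (2855 genes), 0.985 for TF 2 (3137 genes) and 0.723 for TF 3 (4326 genes). The genes differ between these values, and those of TF 1 and TF 2 were called with TF 3 among the libraries, so the 3 medians are not tests of a difference between libraries. For 95.3% of its genes TF 3 moved away from WT in the same direction as TF 1 and 2, and for 400 genes (9.2%) it lay within the WT range. Genes called lower were nearer to WT in TF 3 than genes called higher, with median positions of 0.601 and 0.815.

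**Figure D4:**
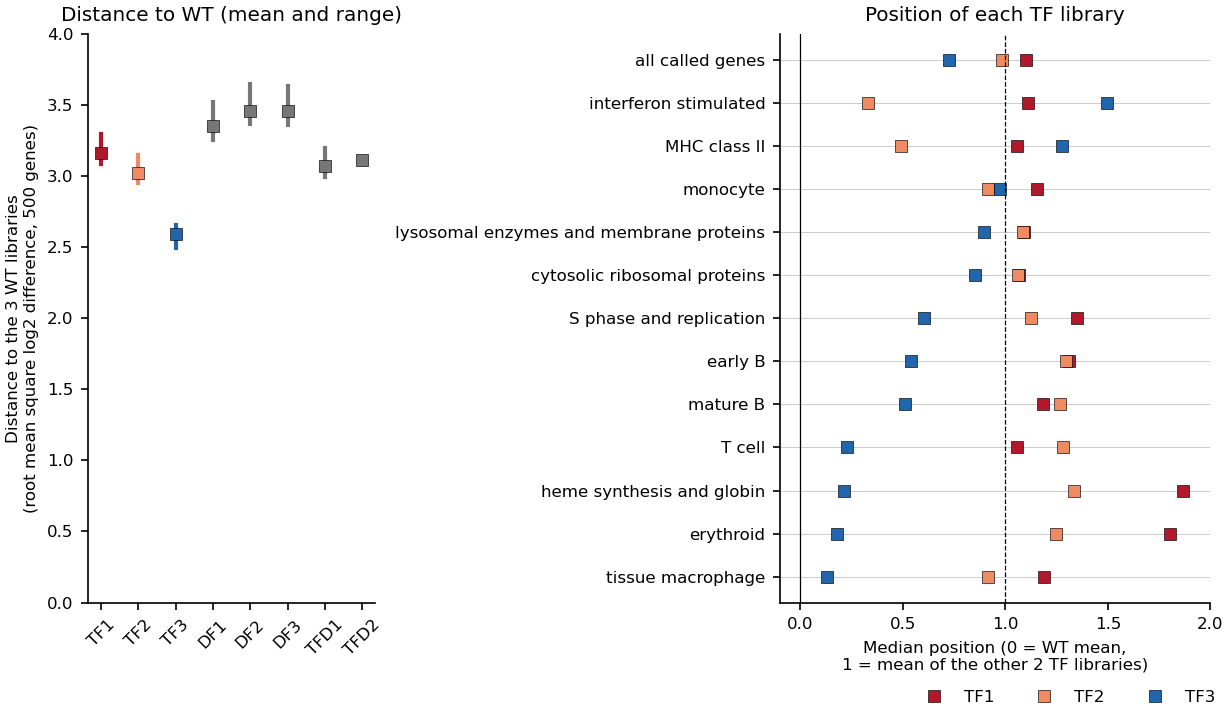
Left, distance of each mutant library to the WT libraries (root mean square log2 difference over 500 genes; squares are means, bars span the 3 WT libraries), lowest for TF 3 at 2.60. Right, median position of each TF library between WT (0) and the other 2 TF libraries (1) over the genes called without it, for all called genes and for 12 lists; TF 3 is at 0.18 for erythroid genes and 0.97 for monocyte genes.

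The place of TF 3 relative to WT differed between gene groups. Its median position was 0.13 over 15 tissue macrophage genes, 0.18 over 35 erythroid genes, 0.21 over 12 heme genes and 0.23 over 19 T cell genes. The macrophage positions ran from -1.181 to 1.262. Over all tested macrophage genes the median relative to WT was 0.55 in TF 3, above every WT library (-0.24 to 0.23), and -0.95 and -0.70 in TF 1 and 2. Over 21 early B and 22 mature B genes the medians were 0.54 and 0.51, with no member inside the WT range. The lowest early B position, -0.3 (Bcl11a), lay beyond WT on the side away from TF 1 and 2. Among the erythroid genes 8 lay within the WT range, Gata1 and Klf1 among them. Others, such as Ube2l6 (-1.071), Slc4a1 (-0.617) and Trim10 (-0.17), lay beyond it on that same side. The median position reached 0.851 over 64 ribosomal protein genes, 0.895 over 40 lysosomal genes and 0.97 over 28 monocyte genes. For interferon-stimulated, MHC class II and cholesterol synthesis genes TF 3 exceeded the other TF libraries, with medians of 1.49, 1.27 and 1.33, while TF 2 was at 0.33, 0.49 and 0.63. No test of these differences between lists was made.

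**Figure D5:**
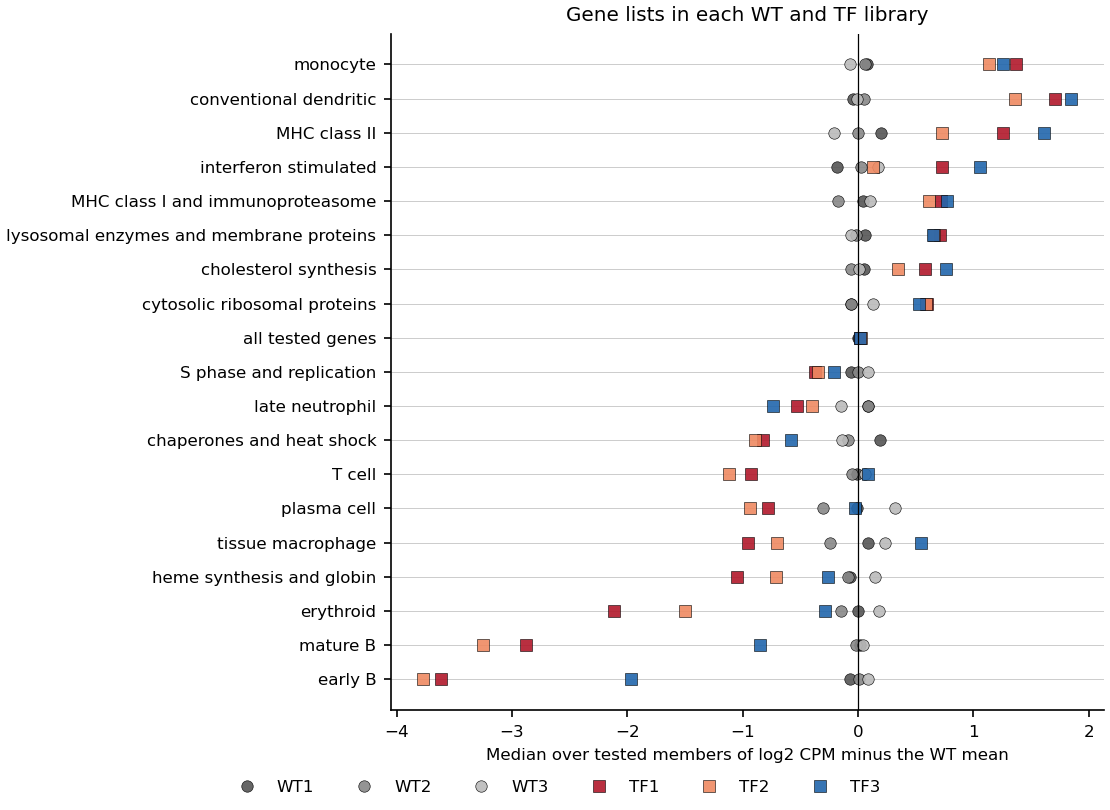
Median over the tested members of each list of log2 CPM minus the WT mean (horizontal axis), for each WT library (circles) and TF library (squares). TF 3 (blue) is at -0.29 for erythroid genes, where TF 1 and TF 2 are at -2.12 and -1.50, and at 1.26 for monocyte genes, where they are at 1.37 and 1.14.

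Other measures that moved with TF replicate 3 were read beside this. It is the only TF library with the Xist level of female cells, so its sex and its place cannot be told apart within TF. Of the 3 WT libraries, WT 3 is alike in this. With TF 3 and WT 3 both left out, 1948 genes were higher, 28 monocyte genes among them, and 1806 lower, among them 35 erythroid and 19 early B genes. Levels of the 14 tested marrow stroma and endothelium genes summed to 172 to 186 CPM in WT, 229 and 224 CPM in TF 1 and 2 and 339 CPM in TF 3. Among them Col1a1, the bone collagen, stood at 8.7, 5.2 and 15.5 CPM in WT and at 2.75, 4.09 and 18 CPM in TF. The 19 tissue macrophage genes summed to 741 to 863 CPM in WT, 756 and 721 CPM in TF 1 and 2 and 1033 CPM in TF 3. The part of these cells in the position of TF 3 was not tested. Its total of 10812015 counts was the lowest of the TF libraries and lay within the WT range.

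TF was also compared with DF, the other double mutant, where Dnmt3a in place of Tet2 is heterozygous. DF and TF share the WT libraries, so their values are set side by side and tested against each other directly. TF exceeded DF in 520 genes (4.27%) and was below it in 203 (1.67%). The DF libraries held 29 to 538 Xist counts and 1628 to 2132 Ddx3y counts, so none had the female Xist level of TF 3. With the sex term TF was higher in 369 genes and lower in 148. Among erythroid genes TF was higher in 31 of 43 and lower in 0, with medians versus WT of -1.08 in TF, -1.82 in TF without TF 3 and -3.40 in DF. Car2 differed by 2.54 between TF and DF (adjusted p = 0.00482, edgeR) and, without TF 3, by 1.74 (adjusted p = 6.69e-04). Among interferon-stimulated genes TF was higher in 27 of 38, with medians versus WT of 0.70 and -0.53. MHC class II genes were higher in TF in 9 of 16, with medians of 1.26 and 0.08. H2-Aa differed by 1.97 with all libraries (adjusted p = 0.0212, edgeR). Without TF 3 it differed by 1.51 and was not called (adjusted p = 0.0579, edgeR). Monocyte genes, with medians of 1.28 and 1.14, were higher in TF in 5 of 35 and lower in 1. Late neutrophil genes were lower in TF than in DF in 7 of 35, with medians of -0.55 and 0.04. The count of genes that differed between TF and DF was 723 and dropped to 341 without TF replicate 3, 385 without DF replicate 1, 252 without DF replicate 3 and 169 without DF replicate 2.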

How the data were processed

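Raw counts per gene were deposited for 11 libraries, with a table of log2 CPM values and gene lengths. Per the labels and the methods the authors aligned reads with STAR to mm10 and counted them with featureCounts. Tool versions and strand setting are not given in the sources used here. The deposited log2 CPM values were made by the authors from those counts, and recomputed values differed from them by at most 5e-09. All sample columns matched a label (0 unmatched), and TFD replicate 3 was not analysed here.

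Genes with CPM over 0.5 in more than 3 libraries were kept. TMM factors and edgeR 4.0.16 (R 4.3.3) quasi-likelihood F tests with Benjamini-Hochberg adjustment over all tested genes were used, with 4 genotypes in 1 model, no block and a threshold of 0.05. DESeq2 1.42.0, Python 3.11.15, numpy 2.4.6, pandas 2.3.3 and matplotlib 3.10.9 were also used. Alternatives were DESeq2, other scalings and filters, a gene length offset, a sex term, a replicate block and leaving out each library. Leaving out TF 3 and WT 3 together was added after seeing the data. Library totals, 8274153 to 15900904 counts, limit precision for genes of few counts. Scripts were tested on simulated data.

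The comparison and the gene lists were chosen with earlier results of these data known. Named genes were the targeted and sex-linked genes. They also included the 12 largest changes in each direction among genes called with and without TF 3, with mean log2 CPM of at least 2 and no overlap of groups. From each list came up to 4 largest called changes (mean log2 CPM of at least 1) and its defining members, and up to 2 genes per list with TF 3 within the WT range. A few genes chosen in this way were left out of the text.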

Additional observations from a re-analysis of the deposited data

Results flagged for a closer look

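Of the 210 named genes called against WT, 204 were looked at here. The direct test between TF and DF picked out 46 of these 204, whose changes relative to WT differed between the genotypes (edgeR's quasi-likelihood test, adjusted p under 0.05). Of the 46, 44 were higher and 2 lower in TF. Over all tested genes 4.27% were higher and 1.67% lower in TF than in DF. The named genes were chosen largely for their change in TF relative to WT, so nothing is read from the count of 46 against these shares. Values in parentheses are log2 differences, TF minus DF. Erythroid and heme genes were Epor (2.88), Gata1 (2.57), Pklr (3.06), Ermap (2.86), Zfpm1 (1.6), Car2 (2.54), Klf1 (3.03), Cpox (1.55), Blvrb (1.99) and Uros (1.25). Antigen presentation, dendritic and interferon genes were H2-DMa (0.73), H2-DMb1 (1.04), H2-Ab1 (1.68), H2-Eb1 (1.89), H2-Aa (1.97), Cd74 (1.74), Tap1 (0.61), Cd209a (2.11), Clec10a (1.53), Itgax (1.93), Irf7 (1.58), Mx1 (1.38), Bst2 (1.6) and Tlr3 (1.84). Lymphoid genes were Spib (3.53), Il7r (2.22), Mzb1 (1.56), Slamf7 (1.76), Irf4 (1.24) and Klrd1 (2.29). Genes of monocytes, macrophages, innate signaling and lipids were Hpgd (3.33), Tnip3 (1.57), Ly86 (0.51), Il10ra (0.54), Fcgrt (0.79), Cxcl16 (1.46), Gm2a (0.54) and Cds1 (0.72). The remaining higher genes were Rprl3 (7.17), Cp (0.68), Socs2 (0.7), Adgra3 (1.51), Runx2 (1.59) and Hspa1b (2.3). The lower genes were Asprv1 (-1.42) and Gata2 (-0.92). Without TF replicate 3, 27 of the 46 were called and 0 changed sign. The difference moved by over 1.5 times in 7, Ermap (to 1.78), Zfpm1 (0.96), Cpox (0.90), Uros (0.60), Il7r (1.19), Mzb1 (0.83) and Cxcl16 (0.89). The 19 not called were Cp, Cd209a, Tnip3, Asprv1, Gata2, Zfpm1, Uros, Mzb1, H2-DMa, H2-Ab1, H2-Eb1, H2-Aa, Cd74, Tlr3, Ly86, Il10ra, Cxcl16, Gm2a and Cds1.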

How the results depend on the processing

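Of 210 called named genes, 161 kept the call in all of the 21 alternatives that gave them an adjusted p, 49 lost it in at least 1 and 0 changed sign. With 1 library left out, 1688 to 2438 genes were higher and 1167 to 2103 lower in TF than in WT, and 169 to 933 differed between TF and DF. Requiring a 2-fold change left 759 higher, 577 lower and 397 different between TF and DF. The distances of TF 1, 2 and 3 to WT were 0.891, 0.856 and 0.737 over all tested genes and 3.67, 3.47 and 2.95 with a prior count of 0.25, with the order kept. With library totals 86.1% of the TF to DF calls were higher and with the length correction 59.5%, against 71.9% with TMM. The genes lower in TF than in DF numbered 106, 342 and 203 in turn. Because edgeR's filterByExpr removed none of the 12199 genes, its counts are those found without filtering. With the replicate block 2288 genes were higher and 1877 lower in TF than in WT, and 600 differed between TF and DF. Same-numbered TF and WT libraries had correlated deviations of 0.10, 0.05 and 0.277, and only TF 3 correlated best with its own number, so the numbers were not taken as pairs. The cause of the moved counts was not tested. Genes with few counts, such as Pax5 in TF 1 and 2, are the least precise.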
